A study of Mus musculus with 6 samples.

Results

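The genes described here are 10 transcription factor genes of the AP-1 and immediate early response: Fos, Fosb, Fosl1, Fosl2, Jun, Junb, Jund, Egr1, Atf3 and Myc. They were chosen by name as the FOS and JUN families with 3 other early response factors, and all 10 were found among the 48526 genes counted. RNA was sequenced from primary renal tubular epithelial cells, grown in dishes from digested kidney cortex of mice aged 4 to 5 weeks. The KO group was 3 libraries from Setd2(F/F)Ksp-Cre+ mice, in which Cre is driven by the promoter of Ksp-cadherin (Cdh16), a gene of kidney tubule epithelium. The WT group was 3 libraries from Setd2(F/F) littermates without Cre. Both groups carried floxed Setd2 alleles and were cultured with 20 ng/ml EGF and 100 nM hydrocortisone. Every KO library carried Cre and no WT library did, so the effect of Cre and that of losing Setd2 cannot be told apart. The labels do not say whether replicates came from separate animals, so p-values measure only how these libraries spread, and some of that spread may be technical.

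FOS and JUN proteins are basic leucine zipper (bZIP) factors that pair into AP-1, a DNA-binding complex at enhancers and promoters of growth, stress and matrix genes. FOS proteins bind DNA as partners of JUN proteins, whereas JUN proteins can also pair with each other. Growth factors such as EGF act through MAP kinases to switch on Fos, Egr1 and related genes within minutes and without new protein synthesis, and their short-lived RNAs decay soon after. In kidney epithelium these genes are known to respond to injury and to the handling of tissue. Setd2 encodes the enzyme that trimethylates lysine 36 of histone H3 along transcribed genes.

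Library totals lay between 89951455 and 96917379 counts in KO and between 86078636 and 106974842 in WT. Setd2 stood at 163.4, 153.7 and 158.5 CPM (library-scaled read counts, with TMM factors) in KO replicates 1 to 3, against 184.5, 167.8 and 152.0 CPM in WT replicates 1 to 3. The groups overlapped, with a log2 fold change of -0.08 ± 0.08 (SE) and an edgeR adjusted p of 0.481. These counts sum all exons, so they do not check the deletion. Xist RNA, made by the inactive X, reached 507 and 606 CPM in KO replicates 2 and 3, against 0.386 CPM in KO replicate 1 and 0.348 to 0.683 CPM in WT, and the Y-linked gene Ddx3y ran the other way, at 0.084 and 0.0815 CPM in KO replicates 2 and 3, against 59.7 CPM in KO replicate 1 and 51.0 to 66.9 CPM in WT. KO replicate 1 therefore came from another animal than KO replicates 2 and 3, and genotype partly coincides with sex. Many results, but not all, are also given without those 2 KO libraries. This leaves 1 KO library against 3, and the spread of KO is then assumed to be that of WT. Of 14 tested tubular markers, 4 were higher in KO (none passed as higher without those 2 libraries, and 1 to 4 did with a single library left out), among them Cdh16 at 884 ± 60.2 CPM in KO and 735 ± 22.5 CPM in WT (SD, n = 3 each). Of all tested genes 12.0% were called higher. Epcam and Cubn were lower in every KO library than in any WT library, without a call. The summed CPM of tubular markers overlapped, at 7920 to 7960 in KO and 6840 to 8020 in WT. Slc34a1, a proximal tubule transporter, was near 0 and not tested, and the collecting duct channel Aqp2 averaged 0.0886 CPM in KO and 0.119 CPM in WT. The summed CPM of endothelial markers ran from 29.4 to 39.5 in KO and from 20.3 to 21.9 in WT. Leukocyte markers summed to 49.6 to 57.9 CPM in KO and 38.2 to 45.1 CPM in WT, and podocyte markers to 156 to 192 CPM in KO and 98.4 to 101 CPM in WT. Fibroblast and pericyte markers overlapped, at 74.5 to 131 CPM in KO and 65.0 to 88.9 CPM in WT. Most of the podocyte sum was Podxl, at 127 to 153 CPM in KO and 77.5 to 80.6 CPM in WT. Much of the fibroblast and pericyte sum was Acta2, which overlapped at 37.0 to 73.0 CPM in KO and 43.3 to 62.0 CPM in WT. Of the tested markers, 5 of 10 endothelial, 4 of 10 leukocyte, 4 of 8 podocyte and 6 of 8 fibroblast and pericyte markers were higher in KO, against 12.0% of all tested genes, and none was at 0 in every library. Without the Xist-positive libraries these counts were 5, 3, 1 and 5, and leukocyte markers had 2 without KO replicate 1 or KO replicate 3. Fibroblast and pericyte markers had 4 without KO replicate 1, KO replicate 3, WT replicate 1 or WT replicate 2. The part of these cells in the results below was not tested, and in bulk RNA fewer cells of a type and less RNA per cell cannot be told apart.

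Promoters of early response genes are known to bind factors of the ATF, CREB and SRF families, and 7 of the 10 genes had a RefSeq promoter window (GRCm38.p6, 250 bases before the start to 50 after). The motif TGACG, the core bound by ATF and CREB factors and by some AP-1 pairs, was searched on both strands and lay in 4 of these 7 windows, those of Fos, Fosb, Junb and Atf3. It lay in 20.8% of all 32851 windows. The 150 bases before the start of these 4 genes are shown because they hold every such match. Capitals mark TGACG, or its reverse complement CGTCA, and TATAAA. They lie at chr12:85473740-85473889 (plus strand) for Fos, chr7:19310046-19310195 (minus) for Fosb, chr8:84978749-84978898 (minus) for Junb and chr1:191183334-191183483 (minus) for Atf3.
Fos: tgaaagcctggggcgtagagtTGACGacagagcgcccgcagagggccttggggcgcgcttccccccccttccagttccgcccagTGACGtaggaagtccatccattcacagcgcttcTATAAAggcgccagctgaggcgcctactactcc
Fosb: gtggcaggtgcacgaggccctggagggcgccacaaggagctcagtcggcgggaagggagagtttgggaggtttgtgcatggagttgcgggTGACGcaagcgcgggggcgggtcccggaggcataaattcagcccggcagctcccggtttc
Junb: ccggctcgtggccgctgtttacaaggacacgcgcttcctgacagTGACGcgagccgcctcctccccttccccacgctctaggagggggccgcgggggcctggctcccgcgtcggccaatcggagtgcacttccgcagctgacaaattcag
Atf3: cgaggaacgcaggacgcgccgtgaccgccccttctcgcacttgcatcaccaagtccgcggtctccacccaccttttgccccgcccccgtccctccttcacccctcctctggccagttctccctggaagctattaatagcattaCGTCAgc
Fos held TGACG at -129 and -66, counted from the start, and TATAAA at -33. Fosb held TGACG at -60, Junb at -106 and Atf3 CGTCA at -7. TATAAA, searched on the gene's strand, occurs in 8.32% of windows, and Junb also held it at the RefSeq start, past the stretch shown. The start of the Atf3 window lies 34706 bases inside the GENCODE gene, so it belongs to a shorter transcript. The window starts of Jund and Fosl2 lie 1210 and 671 bases from the GENCODE gene start, so those windows may not be the promoters of the annotated genes. The palindrome TGACGTCA, which contains TGACG, the AP-1 site TGANTCA, the E-box CACGTG and the CArG box had no match in the 7 windows. They were found, in that order, in 1.79%, 7.81%, 7.15% and 1.63% of all windows, with both strands searched. Sites more than 250 bases before the start, and any sites of Fosl1, Egr1 and Myc, were not searched.

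Early response RNAs are known for AU-rich elements in the 3′UTR that speed their decay. The nonamer TTATTTATT lay in the annotated 3′UTR of Fos and Fosl2, 2 of 10 members, and in 8.25% of 14078 tested genes with a 3′UTR. The shorter ATTTA lay in all 10 members and in 69.7% of those genes. Both nonamers are shown in capitals with 10 bases on each side, at chr12:85477103-85477131 for Fos and chr5:32156871-32156899 for Fosl2, both on the plus strand of GRCm38.
Fos: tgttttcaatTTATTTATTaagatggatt
Fosl2: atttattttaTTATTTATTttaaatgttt
The other 8 members had no such nonamer in the annotated 3′UTR.

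All 10 members passed the filter on low counts, and 6 changed at an edgeR adjusted p below 0.05. Fosl1, Jund, Egr1 and Myc were higher in KO, by 1.40- to 1.84-fold, and Fosl2 and Atf3 were lower, at 0.834 and 0.781 of WT. Fos, Fosb, Jun and Junb did not pass the threshold. Across the 17571 tested genes 21.0% were called, 12.0% higher and 9.08% lower. In 5 members each KO library exceeded each WT library, against 20.6% of tested genes, and in 3 they lay below, against 21.3%, so 8 of 10 did not overlap where 41.9% of tested genes did not. The median log2 fold change was 0.36 over the members and -0.01 over all tested genes. WT replicate 1 had the lowest value of all 6 libraries in 6 members.

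**Figure D1:**
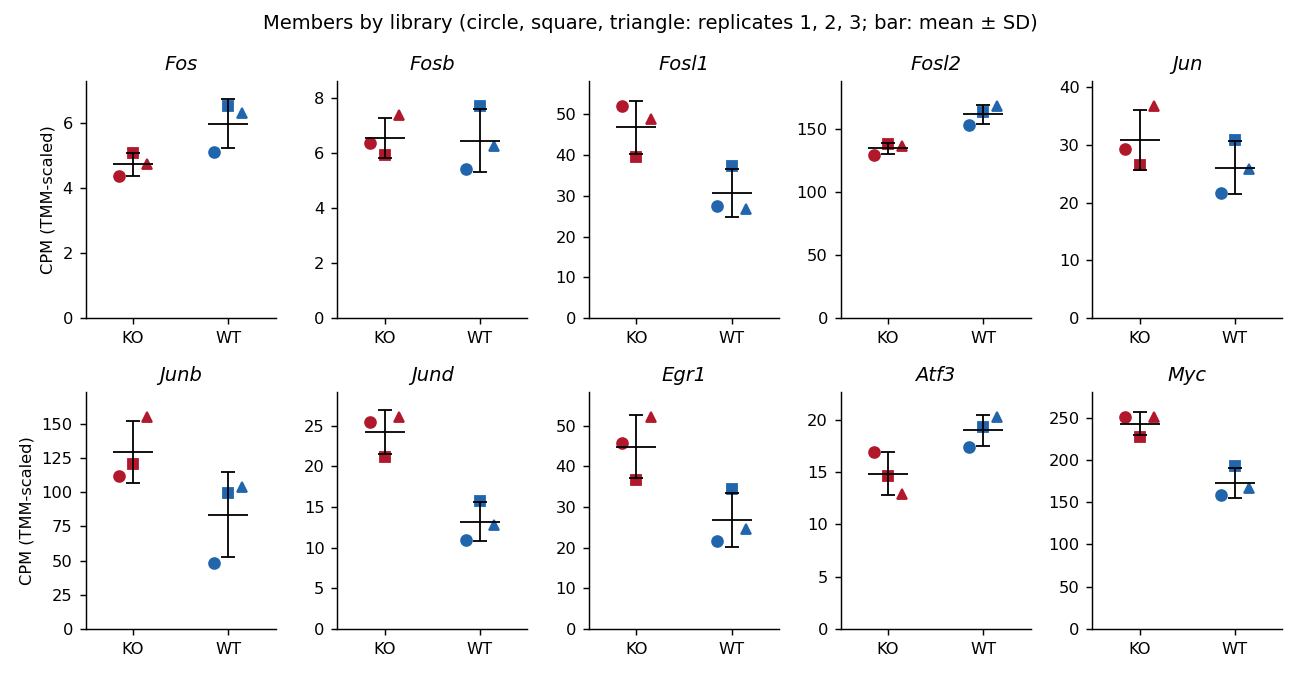
CPM of each of the 10 genes (y axis, from 0, TMM-scaled) in KO and WT libraries (x axis), with replicates 1 to 3 as circles, squares and triangles and bars for the mean ± SD. Jund, Myc, Egr1, Fosl1 and Junb have all KO points above all WT points, while Fos, Fosl2 and Atf3 have all KO points below.

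Among the FOS family, Fosl1 rose and Fosl2 fell. Fosl1 (FRA-1; chromosome 19, 5447547 to 5455946, plus strand), a FOS protein without the transactivation domain of Fos and known from invasive epithelial cells, was at 51.9, 39.5 and 48.9 CPM in KO replicates 1 to 3, against 27.6, 37.4 and 26.9 CPM in WT replicates 1 to 3. All KO values lay above all WT values, with KO replicate 2 and WT replicate 2 the nearest. Its log2 fold change came to 0.61 ± 0.14 (SE; 1.53-fold), with an edgeR adjusted p of 0.0102. Without the Xist-positive libraries it was 0.76, with an edgeR adjusted p of 0.0431. Fosl1 exons share 1163 bases with Ccdc85b on the opposite strand, and without a known strand setting reads of the pair cannot be told apart. Ccdc85b itself was at 1.03 to 3.30 CPM over the 6 libraries, which does not show how reads of the overlap were counted.

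Fosl2 (FRA-2; chromosome 5, 32135801 to 32157842, plus strand), a close relative of Fosl1, was at 129.9, 138.1 and 137.2 CPM in KO, against 153.6, 164.2 and 168.3 CPM in WT. Every KO library was below every WT library, and the spread within groups was small, at the 8.1 percentile of tested genes. This gave a log2 fold change of -0.26 ± 0.07 (SE), with an edgeR adjusted p of 0.0222. The call was lost without the Xist-positive libraries, at a log2 fold change of -0.32 and an edgeR adjusted p of 0.213. It was also lost in edgeR without KO replicate 1, KO replicate 2, KO replicate 3 or WT replicate 2, at adjusted p of 0.141, 0.059, 0.0671 and 0.0713.

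Fos (chromosome 12, 85473890 to 85477273, plus strand), the founding member of the family and a standard marker of recent stimulation, was at 4.38, 5.08 and 4.76 CPM in KO, against 5.13, 6.52 and 6.32 CPM in WT. All KO values were below all WT values, but KO replicate 2 and WT replicate 1 were nearly level. The log2 fold change in edgeR was -0.34 ± 0.13 (SE; 95% interval -0.62 to -0.06), with an edgeR adjusted p of 0.079. It passed the threshold without WT replicate 1, at -0.43 and an edgeR adjusted p of 0.0237. Fosb (chromosome 7, 19302696 to 19310051, minus strand), which is known for a stable truncated form, was at 6.37, 5.93 and 7.38 CPM in KO, against 5.42, 7.71 and 6.27 CPM in WT. The groups overlapped throughout, at 0.02 ± 0.14 (SE; 95% interval -0.29 to 0.33) and an edgeR adjusted p of 0.934.

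In the JUN family, Jund rose, Junb was higher without passing the threshold and Jun overlapped. Jund (chromosome 8, 70698949 to 70700616, plus strand), which restrains growth in many cells, was at 25.5, 21.1 and 26.0 CPM in KO, against 11.0, 15.7 and 12.8 CPM in WT. All KO libraries stood clear of all WT libraries. The log2 fold change of 0.88 ± 0.13 (SE; 1.84-fold) was the largest of the 10 members, with an edgeR adjusted p of 0.00124. Without the Xist-positive libraries it was 0.95, with an edgeR adjusted p of 0.0188. Jund and Fosl1 kept their calls in all 17 alternatives run. The annotated gene Gm11175 overlaps 877 of the 1668 exon bases of Jund on the opposite strand and had 0 counts in every library. Without a known strand setting, these 0 counts do not show that reads of the overlap were counted for Jund.

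Junb (chromosome 8, 84974484 to 84978718, minus strand), often an antagonist of Jun, was at 112.1, 120.5 and 154.9 CPM in KO, against 47.9, 99.5 and 103.5 CPM in WT. KO values all lay above WT values, and WT replicate 1 was less abundant than the other WT replicates by a wide margin. Its log2 fold change came to 0.63 ± 0.23 (SE; 95% interval 0.13 to 1.13), with an edgeR adjusted p of 0.0718, and the spread within groups was at the 92.2 percentile of tested genes. Without WT replicate 1 the log2 fold change was 0.36 and the edgeR adjusted p 0.0456. Without WT replicate 3 these were 0.81 and 0.035, and without the Xist-positive libraries 0.42 and 0.489. Junb also passed in edgeR with no filter beyond a total count of 1, at an adjusted p of 1.01e-10. The counts of Junb were the same in that fit, which differed in the set of genes fitted. Why the p was so much smaller there was not tested.

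Jun (chromosome 4, 95049034 to 95052222, minus strand), a potent transcriptional activator, was at 29.3, 26.5 and 36.6 CPM in KO, against 21.6, 30.7 and 25.8 CPM in WT. KO replicate 3 was the highest and WT replicate 1 the lowest library, and the groups overlapped. This gave a log2 fold change of 0.24 ± 0.14 (SE; 95% interval -0.07 to 0.55), with an edgeR adjusted p of 0.238. Junos, an antisense gene that shares 232 exon bases with Jun, was at 1.81, 1.61 and 1.64 CPM in KO, against 0.625, 0.828 and 0.435 CPM in WT. Junos was higher in KO at 1.41 ± 0.23 (SE) with an edgeR adjusted p of 0.00189, though reads of the overlap cannot be assigned to a strand. The protein-coding transcripts of Jun, Junb and Jund are annotated with a single exon. Counted in this way, or over all transcripts of genes without a coding one, 12.9% of tested genes had a single exon.

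Egr1 and Myc rose, and Atf3 fell. Egr1 (chromosome 18, 34859823 to 34864984, plus strand), a zinc finger factor induced by growth factors through ERK, was at 45.8, 36.7 and 52.1 CPM in KO, against 21.6, 34.4 and 24.7 CPM in WT. The groups did not overlap, and KO replicate 2 and WT replicate 2 came closest. On the log2 scale the change was 0.74 ± 0.16 (SE; 1.67-fold), with an edgeR adjusted p of 0.0102. The call was lost in edgeR without KO replicate 3 (0.61, adjusted p 0.0505) and without the Xist-positive libraries (0.77, adjusted p 0.0742).

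Myc (chromosome 15, 61985391 to 61990374, plus strand), which drives ribosome production and growth, was at 250.4, 226.9 and 250.7 CPM in KO, against 158.6, 192.3 and 167.3 CPM in WT. KO libraries all exceeded WT libraries. Its log2 fold change came to 0.49 ± 0.09 (SE; 1.40-fold), with an edgeR adjusted p of 0.00302. Of the 17 alternatives, the call was lost in edgeR in the fit without the Xist-positive libraries, at 0.53 and an adjusted p of 0.0605.

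Atf3 (chromosome 1, 191170296 to 191218039, minus strand), a stress-induced bZIP repressor that pairs with JUN proteins, was at 17.0, 14.7 and 12.9 CPM in KO, against 17.4, 19.4 and 20.3 CPM in WT. The groups did not overlap, with KO replicate 1 just below WT replicate 1. This gave a log2 fold change of -0.36 ± 0.11 (SE), with an edgeR adjusted p of 0.0422. Without the Xist-positive libraries it was -0.16, with an edgeR adjusted p of 0.608. The call was also lost in edgeR without KO replicate 2, KO replicate 3, WT replicate 2 or WT replicate 3, at adjusted p of 0.103, 0.163, 0.108 and 0.0844, and at a filter of mean CPM of at least 1 (0.0567). With a term for Xist in the edgeR fit of all 6 libraries, Fosl2 (adjusted p 0.116), Egr1 (0.0851) and Atf3 (0.533) lost their calls, while Fosl1 (0.0375), Jund (0.0152) and Myc (0.035) kept theirs.

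**Figure D2:**
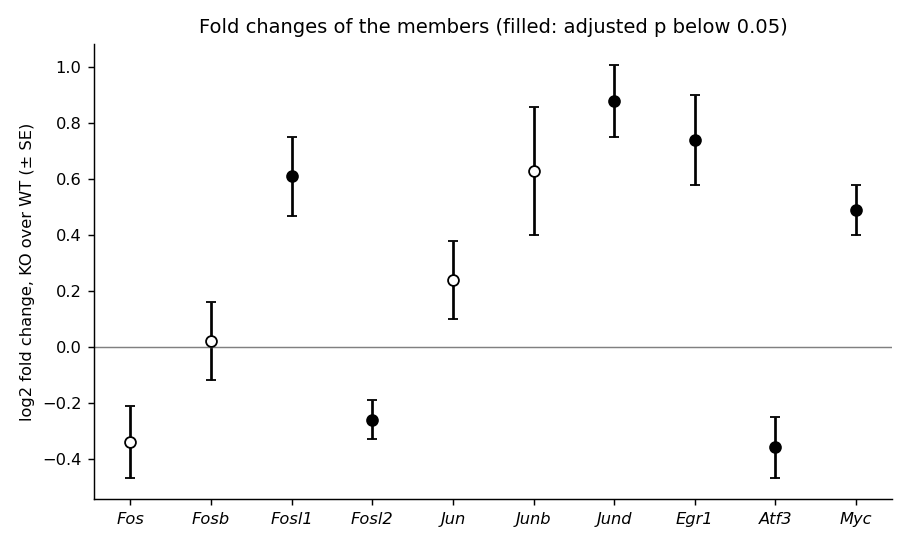
Log2 fold change of KO over WT (y axis) with its SE for the 10 genes (x axis), filled where the edgeR adjusted p was below 0.05. Jund is highest at 0.88 and Atf3 lowest at -0.36, and the wide bar of Junb (SE 0.23) contrasts with that of Fosl2 (SE 0.07).

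Levels were compared between genes as CPM per kb of merged exons. Fosl1 and Jund share 1163 of 2033 and 877 of 1668 exon bases with genes on the opposite strand. Reads there may not have been counted, so the levels and family shares of both genes may be too low. Junb shares 173 of 2301 exon bases with Prdx2 on the opposite strand, a gene at 184.2 to 275.0 CPM over the 6 libraries. How reads of that overlap were counted is not known. Myc was the most abundant member, at 89.3 ± 5.01 in KO and 63.6 ± 6.44 in WT (SD, n = 3 each), and Junb was next, at 56.1 ± 9.86 in KO and 36.4 ± 13.5 in WT. Fos and Fosb were the least abundant, at 2.02 and 1.05 in KO and at 2.55 and 1.04 in WT. In KO the order was Myc, Junb, Fosl1, Jund, Fosl2, Egr1, Jun, Atf3, Fos and Fosb, where library values of Jund and Fosl2 overlapped and so did those of Egr1 and Jun. In WT it was Myc, Junb, Fosl2, Fosl1, Atf3, Jun, Jund, Egr1, Fos and Fosb, where neighbours overlapped between Fosl2 and Fosl1 and along the run from Atf3 to Egr1. All other neighbours were separate in library values. The order depended on the length used: per kb of the longest transcript, Fosl2 (19.9 to 21.1) stood above Jund (12.7 to 15.6) in KO, without overlap, and the other 8 genes kept their rank there.

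The mix of FOS-family RNA differed between the groups. Fosl1 made up 61.1%, 52.8% and 58.1% of the summed FOS-family CPM per kb in KO replicates 1 to 3, against 41.7%, 46.7% and 38.5% in WT. Fosl2 made up 32.1%, 38.8% and 34.2% in KO, against 48.9%, 43.1% and 50.7% in WT. The groups did not overlap in either share. Fosl1 was the larger share in every KO library and in WT replicate 2, and Fosl2 in WT replicates 1 and 3. Per kb of the longest transcript, KO replicate 2 was nearly level, with 45.8% Fosl1 and 45.6% Fosl2, and WT replicate 2 turned round, with 39.9% Fosl1 and 49.9% Fosl2. Fos was 5.07% ± 0.731 of the family in KO and 7.20% ± 0.574 in WT, without overlap. The family sum itself overlapped, at 36.8 to 41.8 CPM per kb in KO and 32.5 to 39.4 in WT.

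JUN-family RNA was mostly Junb in both groups, at 69.7% ± 2.77 in KO and 68.1% ± 6.66 in WT (SD, n = 3 each). The Jund share overlapped as well, at 18.2% in KO and 15.7% in WT. Jun was 12.6%, 11.3% and 12.2% in KO, against 19.8%, 15.5% and 13.3% in WT, and was lower in every KO library. The family sum was 73.2, 73.3 and 94.4 CPM per kb in KO, against 34.2, 62.3 and 60.7 in WT, without overlap. Among the EGR genes, Egr1 held 91.9% of the summed CPM per kb of Egr1, Egr2 and Egr3 in KO and 91.7% in WT.

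**Figure D3:**
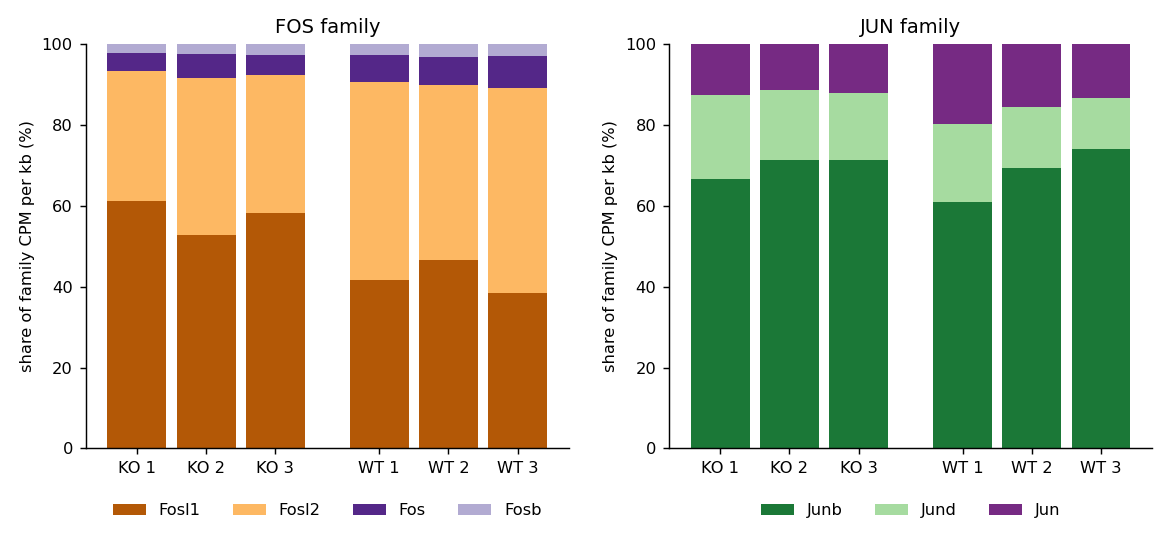
Share of each gene in the summed CPM per kb of its family (y axis, percent, from 0) in each KO and WT library (x axis), for the FOS family and the JUN family. Fosl1 takes 52.8% to 61.1% in KO and 38.5% to 46.7% in WT, while Junb holds the largest JUN share in all 6 libraries.

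Fold changes moved with the GC content of the transcript across all genes. The median log2 fold change was -0.10 in genes below 45% GC and 0.16 in genes above 60%, and the share called higher was 7.78% and 16.6% in these ranges. Transcripts of the members had 51.9% (Fos) to 67.1% (Jund) GC, against a median of 49.3% over tested genes. With a correction for GC in each library, chosen after seeing the data, the 6 calls were kept, with Jund at 0.63 and an edgeR adjusted p of 0.00315. Fos (-0.35, adjusted p 0.0326) and Junb (0.47, adjusted p 0.0216) passed the edgeR threshold as well.

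**Figure D4:**
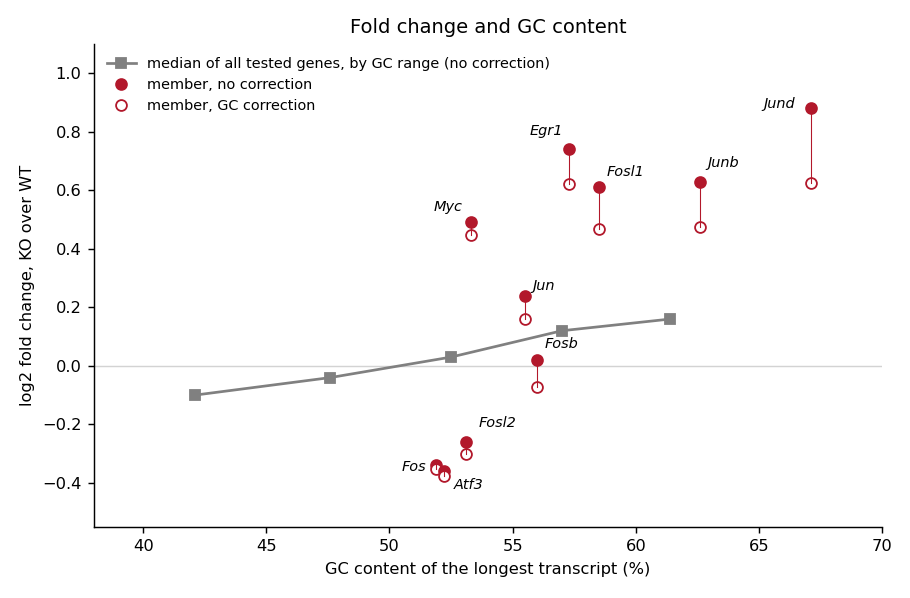
Log2 fold change of KO over WT (y axis) against GC content of the longest transcript (x axis, percent). Squares are medians of all tested genes in 5 GC ranges, filled circles the 10 genes without correction and open circles with it. The medians are without correction and end at 61.4% GC. Jund, at 67.1% GC, moves from 0.88 to 0.63, and the uncorrected values of the other genes called higher lie above the line of medians.

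Several AP-1 target genes from textbooks were higher in KO. Of 24 tested, 9 rose and 0 fell at the edgeR threshold, where 12.0% of all tested genes were called higher and 9.08% lower. The median log2 fold change was 0.28, against -0.01 for all tested genes. This list, like the others, was chosen with earlier results of these data known. DESeq2 and limma-voom also called 0 lower, and 1 was lower at an unadjusted edgeR p below 0.05. With the GC correction, and with no filter beyond a total count of 1, 1 was called lower. Ivl, which encodes the keratinocyte envelope protein involucrin, was at 35.8, 38.8 and 47.2 CPM in KO, against 11.2, 12.9 and 12.0 CPM in WT (1.75 ± 0.11 SE, edgeR adjusted p 8.47e-06). Mmp13, a collagenase, was at 23.1, 11.3 and 10.1 CPM in KO, against 3.57, 2.53 and 2.28 CPM in WT (2.41 ± 0.29 SE, edgeR adjusted p 0.00033). Both were clear of WT in every KO library. Ezr, which links actin to the membrane, also rose (0.56, edgeR adjusted p 0.00158), as did Mmp10, Plaur, Hmox1, Cd44, Lgals3 and Mt1. The count was 4 without KO replicate 1 and 6 without the Xist-positive libraries or without KO replicate 3.

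Other immediate early genes went both ways. Of 29 tested, 7 rose and 7 fell, with a median log2 fold change of 0.05. The shares of all tested genes were 12.0% called higher and 9.08% called lower. Zfp36 and Zfp36l1, which encode proteins that bind AU-rich elements and speed RNA decay, rose by 0.65 (edgeR adjusted p 0.00184) and 0.66 (edgeR adjusted p 0.00524) on the log2 scale. Egr3 rose by 1.47 (edgeR adjusted p 0.0181) at a low level, 0.370 CPM in KO and 0.131 CPM in WT. Nfkbiz, a nuclear cofactor of NF-kappaB, fell by 0.50 (edgeR adjusted p 0.00207), Sgk1, a kinase induced by glucocorticoid, by 0.63 (edgeR adjusted p 0.00314) and Plk2 by 0.53 (edgeR adjusted p 0.00488). Without the Xist-positive libraries 1 was higher and 1 lower, and without KO replicate 1 the counts were 3 and 3. Without KO replicate 3 they were 3 and 4, and without WT replicate 3 they were 4 and 6.

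Maf and Jdp2 among the partners of the members were higher in KO, and the few calls among their inputs went both ways. Of 13 tested bZIP partners, 4 rose and 0 fell at the edgeR threshold, and 0 were lower at an unadjusted p below 0.05 or by DESeq2 or limma-voom. The counts were 2 higher and 1 lower with the GC correction and 2 and 0 with no filter beyond a total count of 1. The share of all tested genes called was 12.0% higher and 9.08% lower. The 4 included Maf (1.35 ± 0.17 SE, edgeR adjusted p 0.000406) and Jdp2, a repressor that pairs with JUN (0.38, edgeR adjusted p 0.0217). Of 20 tested upstream kinases and promoter-bound factors, 2 rose and 1 fell: Mapk3, which encodes ERK1 (0.60, edgeR adjusted p 0.00108), Mrtfa, a coactivator of SRF (0.47, edgeR adjusted p 0.0168), and Crem, a CREB-family factor (-0.36, edgeR adjusted p 0.0289). Neither 2 of 20 nor 1 of 20 is above the share of all tested genes. The median log2 fold change was 0.0 in this list and in the bZIP partners. Without any given KO replicate, or without the Xist-positive libraries, 1 bZIP partner rose, and 2 rose without WT replicate 1 or 3. In upstream genes 1 rose and 0 fell without KO replicate 1, KO replicate 3 or the Xist-positive libraries, and 2 rose and 3 fell without WT replicate 3. None fell without KO replicate 2 (2 rose) or WT replicate 1 (3 rose).

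Targets and partners of EGR1 and MYC changed as follows, where 12.0% of all tested genes were called higher and 9.08% lower. Of 11 tested EGR1 corepressors and targets, 3 rose, led by Tgfb1 (0.86, edgeR adjusted p 0.000476) and the EGR1 corepressor Nab2 (0.53, edgeR adjusted p 0.00772). Thbs1, thrombospondin 1, was the gene that fell (-0.58, edgeR adjusted p 0.00214), and 3 fell without WT replicate 1 or with the GC correction, and 2 in DESeq2 or with no filter beyond a total count of 1. Of 14 tested genes of the MYC network, Mxd1 (0.82, edgeR adjusted p 0.00126) and Mnt (0.58, edgeR adjusted p 0.00371), which compete with MYC for MAX, rose with Max (0.36, edgeR adjusted p 0.0126). Mycn fell (-0.69, edgeR adjusted p 0.0019). At a mean CPM of at least 1, 5 genes of the network rose, and with the GC correction 2 fell. With the Xist term in the fit of all 6 libraries, 2 genes of the EGR1 list rose and 1 fell, and 2 genes of the MYC network rose.

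No textbook MYC target was called higher. Of 24 tested, 0 rose and 3 fell at the edgeR threshold, with a median log2 fold change of -0.12. DESeq2 and limma-voom gave the same counts. Across all tested genes 12.0% were called higher and 9.08% lower, and 3 of 24 lower is near that share. At an unadjusted edgeR p below 0.05, 1 was higher and 6 lower. Ppat (-0.28, edgeR adjusted p 0.0158), of purine synthesis, Nme1 (-0.28, edgeR adjusted p 0.0173) and Wdr12 (-0.33, edgeR adjusted p 0.0223), of ribosome assembly, were those that fell. None passed in either direction without the Xist-positive libraries, without KO replicate 1 or without KO replicate 3, while 6 fell without WT replicate 1 and 7 with the GC correction. Heat shock genes, a marker of stress in handling, had 0 calls of 10 in edgeR, DESeq2 and limma-voom, with 0 higher and 1 lower at an unadjusted edgeR p below 0.05. Leaving out WT replicate 1 gave 1 higher, and leaving out WT replicate 3, or using no filter beyond a total count of 1, gave 1 higher and 1 lower. Their summed CPM overlapped, at 5360 to 5820 in KO and 5210 to 6310 in WT.

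**Figure D5:**
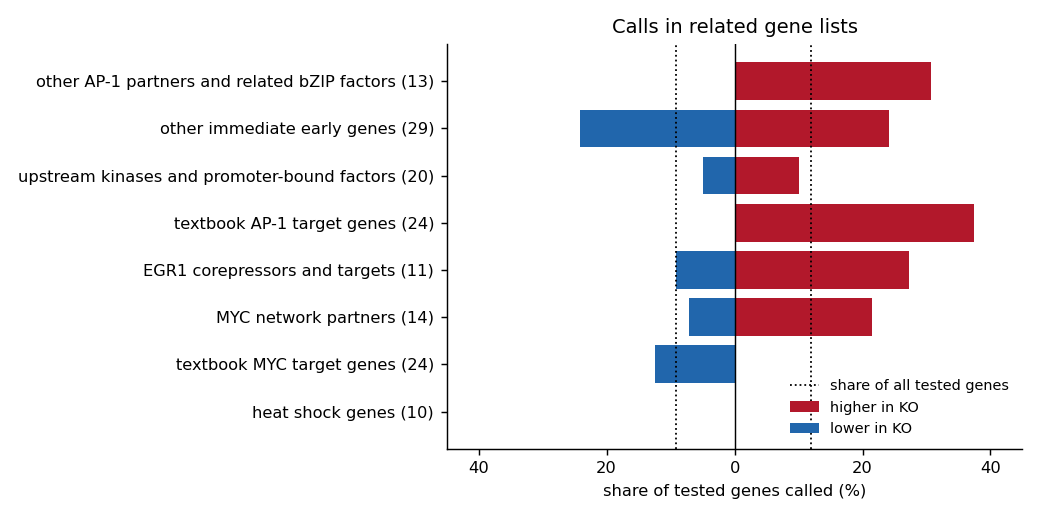
Share of the tested genes of each related list (y axis, number tested in brackets) called higher in KO (right, red) or lower in KO (left, blue) by edgeR, in percent on the x axis, with dotted lines at the shares of all tested genes, 12.0% and 9.08%. AP-1 target genes have 9 of 24 called, all higher, and MYC target genes 3 of 24, all lower.

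By pattern over the 6 libraries, the genes most like Fos were Nfkbie, Zfp647, Mrm3, Pdgfb and Rgl2. Their mean absolute difference from Fos in centred log2 CPM was 0.022, 0.029, 0.039, 0.040 and 0.043, in that order. Nfkbie, for example, was at 16.8, 18.6 and 17.8 CPM in KO, against 18.9, 23.9 and 23.0 CPM in WT. Their likeness to Fos is what chose them, and none was called, at edgeR adjusted p of 0.0526 to 0.123.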

How the data were processed

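RNA-seq was measured in 3 KO and 3 WT libraries, grouped by the sample titles. The authors deposited raw read counts per Ensembl gene, without normalization. Trimmomatic 0.38, STAR 2.7.1a, HTSeq 0.11.2 and mm10 are named per the submitters' processing notes. For strand setting, annotation release and multi-mapping reads, the choice is not given in the sources used. Symbols and GRCm38 coordinates came from GENCODE M21, which matched 48144 of 48526 genes. The 382 others held 0.0165% of counts.

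The test was that of edgeR 4.0.16 under R 4.3.3 (filterByExpr, TMM factors, quasi-likelihood test, Benjamini-Hochberg over 17571 genes, threshold 0.05). The SE is the size of the log2 fold change divided by the root of the F statistic. CPM used TMM-scaled library sizes. The procedure was tested on simulated data. Chi-square over degrees of freedom was 22.73 to 77.12 between replicates, so none were copies. The members and lists were chosen with earlier results of these data known. Named genes were all members, Setd2, and up to 3 called genes per list and direction by smallest adjusted p, or the 2 most abundant where none passed, and the 5 tested genes of at least 1 CPM nearest to Fos. Other genes were named after their values were seen.

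Alternatives were other scaling factors, other filters, DESeq2 1.42.0, limma-voom (limma 3.58.1), a replicate block, an Xist term, leaving out Xist-positive libraries (above 10 CPM) and each library. A GC correction by loess (span 0.3) was chosen after seeing the data. No protein sequence was used here. Figures were drawn with matplotlib 3.10.9.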

Additional observations from a re-analysis of the deposited data

How the results depend on the processing

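Of 170 recomputed fold changes of the 10 genes, 140 kept direction and side of the threshold, 17 lost the call, 7 gained it and 6 turned round. Those 6 were all of Fosb: -0.023 with an Xist term, -0.024 without Xist-positive libraries, -0.074 without KO replicate 3, -0.079 without WT replicate 1, -0.003 without WT replicate 3 and -0.071 with the GC correction, while leaving out WT replicate 2 gave 0.168. The 3698 genes called (2102 higher, 1596 lower) became 1163 (878 and 285) with the Xist term and 907 (728 and 179) without Xist-positive libraries. Leaving out 1 library gave 1683 to 3766 (1228 to 2142 and 455 to 1624), lowest without KO replicate 1. Of the 10 genes, 3 (0 lower) were called with the Xist term and 2 (2 higher, 0 lower) without Xist-positive libraries, against 6, 1 was lower at a mean CPM of at least 1, and leaving out a library gave 3 to 8 (3 to 5 higher, 0 to 3 lower). Calls in the 8 related lists, 41, became 17 and 16 under these alternatives, and 18 to 43 with a library left out. With the longest transcript as length, Fosl2 was 41.7% of the FOS family in KO and 54.4% in WT, and Junb 74.6% of the JUN family in KO. The cause was not tested.

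Replicate numbers did not pair the samples: deviations of same-numbered libraries correlated at 0.0417, -0.146 and 0.0324. A replicate block gave 3594 calls and Junb passed, at 0.69 and an edgeR adjusted p of 0.00184, while 2 bZIP partners were called higher and 2 EGR1-list genes lower. Counting limits genes near 1 CPM more than the members, which had at least 386 counts in every library. Over the main fit and the 17 alternatives, the median log2 fold change of the tested genes lay between -0.03 and 0.02.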
